A study of Mus musculus with 502 samples.

Results

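The MHC class II presentation genes are 7 of the 46603 gene rows of a single-cell count table of mouse kidney immune cells. The members were taken by symbol, from a list made with earlier results of these data known. They are Cd74, H2.Aa, H2.Ab1, H2.Eb1, H2.DMa, H2.DMb1 and Ciita, where the count table writes the hyphen of an H2 symbol as a dot. Class II molecules are pairs of an alpha and a beta chain that show peptides from the endosomes to CD4+ T cells, and B cells, macrophages and dendritic cells are the blood cells best known for making them. New pairs assemble on the invariant chain, the product of Cd74, which fills the peptide groove and directs the complex to endosomes, where proteases cut it away and the H2-DM pair exchanges its last fragment for other peptides. Ciita is the transactivator of these genes and is recruited by the RFX, CREB and NF-Y proteins that sit on the X and Y elements upstream of class II genes.

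The cells were 502 single Cd45+ cells, negative for propidium iodide, from kidneys of CD1 wild type mice, an outbred stock, at about 3 weeks of age. Kidneys were either dissociated fresh (75 cells in one library pool and 81 in another) or first kept whole at 4 °C in HTS-FRS, an organ preservation solution, for 6 h (76 cells), 1 day (75), 2 days (78), 3 days (82) or 4 days (35). Kidneys from the same mouse were combined at each timepoint, and the labels name no animal, so each timepoint is 1 sample and nothing was tested between timepoints. A number in the labels, taken here as the library pool, splits the cells into A (fresh, 6 h, day 2 and 2 cells of day 4), B (fresh, day 1, day 3 and 19 cells of day 4) and C (14 cells of day 4). Both A (75 cells) and B (81 cells) hold fresh cells.

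The values are reads per gene, counted by the authors after removal of duplicates and without molecular identifiers. The median cell held 695188 reads on genes, with a range of 1759 to 1895431, and pool A was deeper than pool B (a median of 1010783 against 550570 in C1qb cells). A level is a count divided by the reads on genes, given as rpm for 1 cell and as CPM for a sum of cells. A gene counted as read in a cell at 10 reads or more. Cells were gated with the same limit on 5 genes. The first were Cd79a, a B cell receptor subunit (74 cells), and C1qb, a complement subunit made by macrophages (24.9% of cells). The others were Csf1r, the receptor of a macrophage growth factor, without C1qb (72), Cd3e, a T cell receptor subunit (20.7% of cells), and S100a8, abundant in neutrophils (32). A further 20 cells held a mix of these genes and 75 held none. With the 5 gate genes left out of each list, Cd79a cells held 6 of 6 B cell markers and 0 of 6 macrophage markers in at least 25% of cells, C1qb cells 6 of 6 macrophage markers, Cd3e cells 5 of 6 T cell markers and S100a8 cells 5 of 5 neutrophil markers and 3 of 5 monocyte markers. Csf1r cells without C1qb held 5 of 5 monocyte markers and also 4 of 6 macrophage markers. C1qb cells also held at least 10 reads of a B cell marker, Ighm, in 77.6% of cells (37.5% of Cd3e cells held it too), and Cd79b in 13.6% (0.962% of Cd3e cells), whereas Ebf1 reached 10 reads in 1 of them and Ms4a1 and Pax5 in 0. The summed level of the B cell markers had a median of 18015 rpm (903.5 to 37412) in Cd79a cells and 1159 rpm (0 to 7523) in C1qb cells. Of 5 kidney epithelium markers 0 reached that share in any gate.

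Of the 7 genes, 5 lie together in the H2 region of chromosome 17 of GRCm38: H2-DMa at chr17:34119541-34139101, H2-DMb1 at chr17:34153072-34160230, H2-Ab1 at chr17:34257689-34269419 and H2-Eb1 at chr17:34305867-34316674 on the plus strand, and H2-Aa at chr17:34282744-34287823 on the minus strand. Ciita lies at chr16:10480059-10528418 on the plus strand. These are protein-coding gene models of GENCODE M21. Exons of Brd2 cover 10.4% of the exon bases of H2-DMa, and the reads were counted without strand, so reads there cannot be told apart. H2.DMb1 and H2.DMb2 are near-identical copies, and a split of reads between them is uncertain.

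The sequence upstream of these genes is shown because X and Y elements upstream are a known common feature of class II genes, through which Ciita reaches them. RefSeq windows of GRCm38.p6 that run from 250 bases before each start were held for 4 of the 7 members, H2-Aa, H2-Eb1, H2-DMa and H2-DMb1, and for 4 other class II genes, H2-Eb2, H2-DMb2, H2-Oa and H2-Ob. The 3 stretches printed here run 5′ to 3′ from 130 to 41 bases before the start, with matches to CTNNNAAC (X) and TGATTGG (Y) in capitals. The letters and the spacing were chosen after the sequences were seen.
H2-Aa, chr17:34287864-34287953, minus strand: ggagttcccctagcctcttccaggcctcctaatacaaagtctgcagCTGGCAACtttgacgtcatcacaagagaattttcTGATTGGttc
H2-Eb1, chr17:34305737-34305826, plus strand: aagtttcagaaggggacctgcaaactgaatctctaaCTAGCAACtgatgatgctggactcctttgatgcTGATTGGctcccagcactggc
H2-DMb2, chr17:34145119-34145208, plus strand: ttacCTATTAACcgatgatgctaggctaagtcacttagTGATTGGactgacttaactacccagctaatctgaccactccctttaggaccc
The H2-Aa and H2-Eb1 stretches lie outside the gene models, and that of H2-DMb2 lies between exons of its gene model.

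From the first base of X to the first base of Y there were 34 bases in H2-Aa, 33 in H2-Eb1, 34 in H2-DMb2, 34 in H2-DMb1 (X at -97) and 31 in H2-Ob (X at -90). H2-Oa and H2-Eb2 matched Y without an X 30 to 36 bases before it. H2-DMa did not match Y in either of its 2 windows, which says only that these letters are not there. An X at any other place was not looked for in H2-Oa, H2-Eb2 and H2-DMa. Over all 32851 windows, cut to the 250 upstream bases and read on both strands, Y occurred in 7.23%, X in 35.7% and an X that starts 30 to 36 bases before a Y on the same strand in 0.067%, or 22 windows. A match is a description of letters and not a measured site.

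Class II reads lay mostly in the Cd79a, C1qb and part of the Csf1r cells, and also in 20 of the 75 cells that held no gate gene. Cd74 was the most widely read member, in 55.6% of the 502 cells (95% Clopper-Pearson interval 51.1 to 59.98). H2.Aa was read in 46.4% and H2.Ab1 in 46.2%, the 2 chains of the I-A molecule. H2.Eb1, the beta chain of the I-E molecule, was read in 21.3%. H2.DMa reached 40.8%, H2.DMb1 34.5% and Ciita 16.9% (85 cells). All such intervals cover counting error only. Altogether 42 cells held all 7 members, and 40.04% of cells held none.

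By gate, Cd74 was read in 98.4% of C1qb cells and 68 of 74 Cd79a cells (91.9%), in 50 of 72 Csf1r cells without C1qb (69.4%), and in only 2 Cd3e cells (1.92%) and 3 of 32 S100a8 cells (9.38%). H2.Aa and H2.Ab1 followed the same order, with H2.Ab1 in 88.8% of C1qb cells, 63 Cd79a cells (85.1%), 30 Csf1r cells (41.7%) and 0 Cd3e cells. H2.Eb1 was lower in the first 3 gates, at 36.5% of Cd79a cells, 31.2% of C1qb cells and 30.6% of Csf1r cells, and the intervals of these 3 shares overlap (25.6 to 48.5, 23.2 to 40.1 and 20.2 to 42.5). These shares mix library pools in different proportions: in pool A H2.Eb1 was read in 23 of 29 C1qb cells, 16 of 37 Cd79a cells and 17 of 48 Csf1r cells, and in pool B in 16 of 94, 11 of 37 and 3 of 22. H2.DMa stood at 64.9%, 64.8% and 63.9% in these gates, but they were not alike within pools. In the same order it was read in 59.5%, 79.3% and 77.1% of cells in pool A and in 70.3%, 59.6% and 31.8% in pool B. H2.DMb1 was read in 71.6% of Cd79a, 53.6% of C1qb and 38.9% of Csf1r cells. Ciita, the regulator, was read in a minority of each gate: 33.8% of Cd79a cells, 20% of C1qb cells and 23.6% of Csf1r cells. T cells of the mouse lack class II, and the Cd3e cells serve as the background, at a median depth of 708409.5 reads against 724591 in Cd79a and 620380 in C1qb cells: H2.Aa, H2.Ab1, H2.Eb1, H2.DMb1 and Ciita were read in 0 of them. With each of 494 cells thinned to 100000 reads and a single read as the limit, Cd74 was found in 91.9% of Cd79a, 98.4% of C1qb, 7.77% of Cd3e and 9.68% of S100a8 cells.

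**Figure D1:**
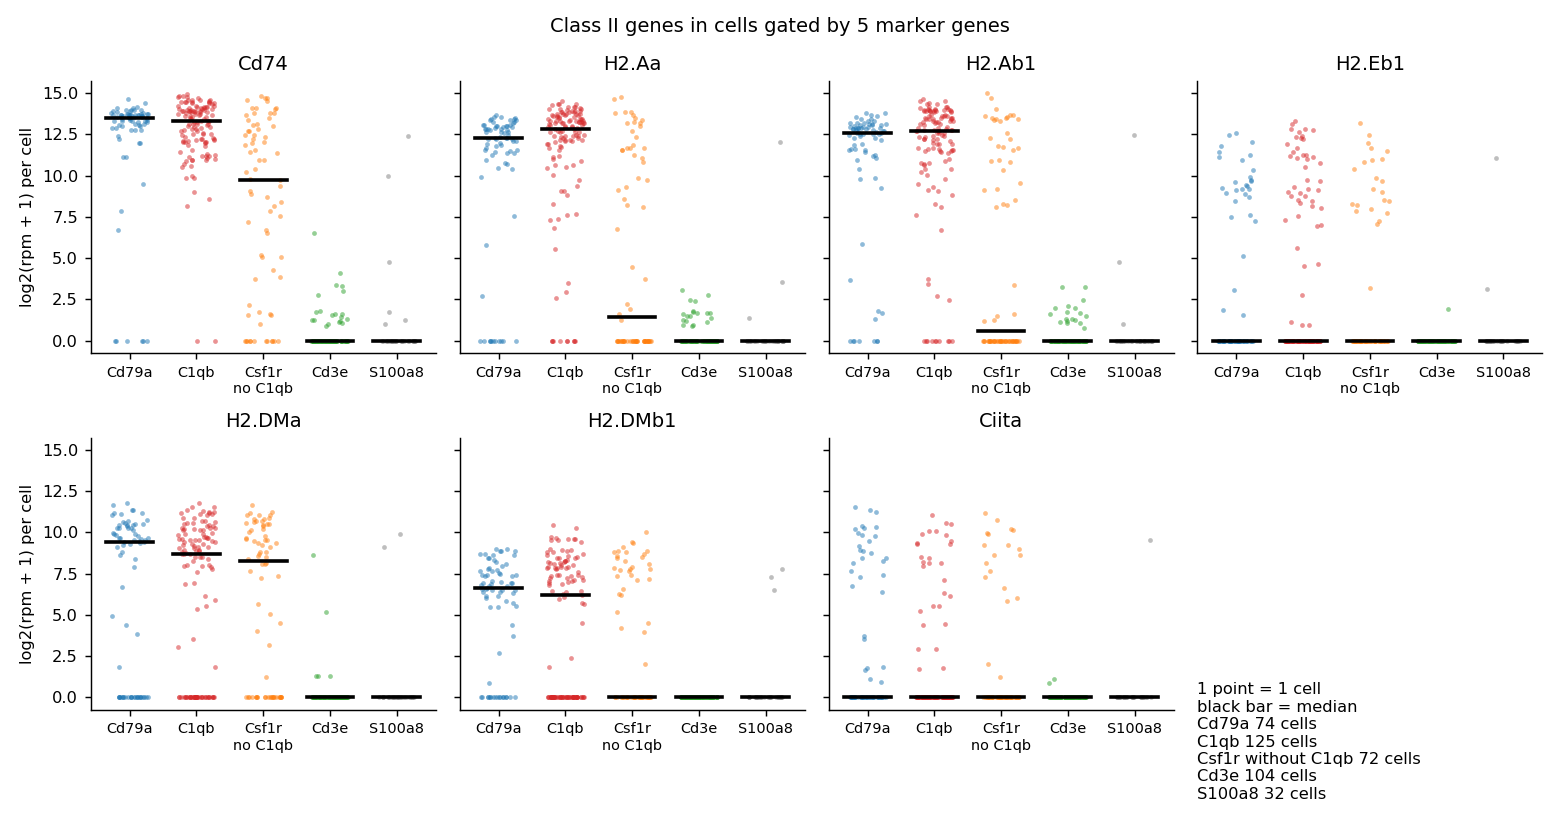
Levels of the 7 class II genes in single cells, 1 panel a gene. The vertical axis is log2(rpm + 1), the columns are the 5 gates, each point is 1 cell and the black bar is the median. Cd74, H2.Aa and H2.Ab1 fill the Cd79a and C1qb columns, split the Csf1r column, and are near 0 in the Cd3e column. H2.Eb1 and Ciita have a median of 0 in each gate.

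Cd74 lies at chr18:60803848-60812652 on the plus strand. Its median was 11409 rpm in Cd79a cells (range 0 to 25566) and 10216 rpm in C1qb cells (0 to 32094), but 862.5 rpm in Csf1r cells (0 to 28941). H2.Ab1 had medians of 6127, 6583 and 0.638 rpm in the same 3 gates. Cd79a and C1qb cells therefore overlapped almost fully, and the Csf1r cells were spread over the whole range. Per kilobase of exon, the scale on which genes can be set side by side, the summed levels in C1qb cells ran from Cd74 (7308 CPM per kb) through H2.Ab1 (3110), H2.Aa (2024), H2.Eb1 (597), H2.DMa (213.9) and H2.DMb1 (133.1) to Ciita (16.6). The Cd79a cells had the same order, from 6427 for Cd74, 2099 for H2.Ab1, 1299 for H2.Aa and 342 for H2.Eb1 down to 30.5 for Ciita. Over these pooled sums the structural chains stood above the H2-DM chaperone, and the regulator stood last, in both gates. The order of Cd74, H2.Ab1 and H2.Aa held in each of the 5 Cd79a and 6 C1qb sums. H2.Eb1 changed places with H2.DMa: in C1qb cells it stood at 2318 CPM per kb at 6 h, above 472.8 for H2.DMa, and below H2.DMa on day 1 (32.8 against 113.2), day 3 and day 4. In Cd79a cells it was below H2.DMa fresh (129.6 against 260.5) and on day 3 (1.09 against 237.9).

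The S100a8 cells hold most of their class II reads in 1 cell. That fresh cell carried 89.02% of the Cd74 reads of the gate, 99.7% of H2.Aa, 99.6% of H2.Ab1 and 99.7% of H2.Eb1, and it was the one S100a8 cell with all 7 members. In 27 of the 32 cells no member was read.

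To compare gates, counts were summed per timepoint and gate, and 26 sums of at least 3 cells were fitted in edgeR with the timepoint as a block. The p-values therefore measure the spread among timepoints and not among known animals. In CPM, the Cd74 sums of Cd79a cells were 11901 fresh, 8463 at 6 h, 6360 on day 1, 13422 on day 2 and 5985 on day 3. Those of C1qb cells were 11074, 20972, 9237, 17623, 8639 and 17081 from fresh to day 4, and those of Cd3e cells lay between 0.111 and 2.58. The Cd79a and C1qb sums overlapped, and the Cd3e sums lay below both.

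All 7 members rose in Cd79a cells against Cd3e cells (7 of 7 at an adjusted p under 0.05, in a comparison in which 0.831% of the 12154 genes tested were called higher). Each was higher at 5 of 5 timepoints. For Cd74 the log2 fold was 13.89 (SE 1.62, edgeR quasi-likelihood adjusted p = 9.945e-06), from 590330 reads against 110. H2.Aa (13.77, SE 2.22, adjusted p = 0.000627) and H2.Ab1 (13.58, SE 2.00, adjusted p = 0.000212) differed as much. H2.DMa, for which 1 Cd3e cell held 82.95% of the reads of its gate, differed by 10.20 (SE 1.47, adjusted p = 0.000165). Where Cd3e cells had 3 reads or fewer, a fitted fold depends on the prior count and the ratio of counts is given instead. H2.Eb1 had 36418 reads against 3, a CPM ratio of 16637 (counting interval 5692 to 80677), with an adjusted p of 0.003006. H2.DMb1, the beta chain of H2-DM, had 7450 reads against 0, so that it was at least 3403-fold higher with 3 reads over the whole gate as the floor (adjusted p = 0.000553).

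Ciita had 15928 reads in Cd79a cells against 2 in Cd3e cells, a CPM ratio of 10915 (counting interval 3021 to 90133). Its adjusted p of 0.0494 was close to the threshold, and the call was kept in 5 of 17 alternatives, whose adjusted p ran from 1.055e-08 to 0.204. It was lost when the fresh, 6 h, day 1, day 2 or day 4 sums were left out (adjusted p = 0.204, 0.148, 0.146, 0.178 and 0.145). The fitted Ciita fold stayed positive in each of them, above 10 on the log2 scale, with a lowest value of 10.3.

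In C1qb cells against Cd3e cells all 7 members rose as well (4.04% of genes were called higher), each at 6 of 6 timepoints and in each of the 17 alternatives. The log2 folds were 14.74 for Cd74 (SE 1.66, edgeR adjusted p = 3.538e-06), 14.97 for H2.Aa (SE 2.29, adjusted p = 0.000135), 14.91 for H2.Ab1 (SE 2.08, adjusted p = 5.022e-05) and 10.49 for H2.DMa (SE 1.47, adjusted p = 5.396e-05). H2.Eb1 had a CPM ratio of 28663 (counting interval 9808 to 138991), H2.DMb1 was at least 5527-fold higher, and Ciita had a ratio of 5870 (1625 to 48473), with adjusted p-values of 0.000482, 0.000108 and 0.00718. The median over the members was 14.91 against 0.63 over all genes, and in Cd79a cells against Cd3e cells 13.58 against -0.16. Both contrasts share the Cd3e sums.

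The Cd79a and C1qb cells were not separated by these genes. None of the 7 passed the test between them (2.9% of genes were called), and the log2 folds of Cd79a over C1qb were -0.85 for Cd74 (SE 1.03), -1.20 for H2.Aa (SE 1.44), -1.33 for H2.Ab1 (SE 1.32), -1.55 for H2.Eb1 (SE 1.91), -0.29 for H2.DMa (SE 1.02), -1.47 for H2.DMb1 (SE 1.31) and -0.82 for Ciita (SE 2.07). Adjusted p-values in edgeR ran from 0.716 to 0.990, no member had an unadjusted p under 0.05 (2024 genes did), and DESeq2 called 0 members and 2289 genes. With standard errors above 1 on the log2 scale a difference of this size was not detectable, and far larger ones can go uncalled at this spread, while the median of all genes in this contrast was -0.77. Sums of C1qb cells were above those of Cd79a cells at 4 of 5 timepoints for Cd74, H2.Aa, H2.Ab1, H2.Eb1 and H2.DMb1, whereas H2.DMa was higher in Cd79a cells at 3 of 5 timepoints and Ciita at 2 of 5.

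**Figure D2:**
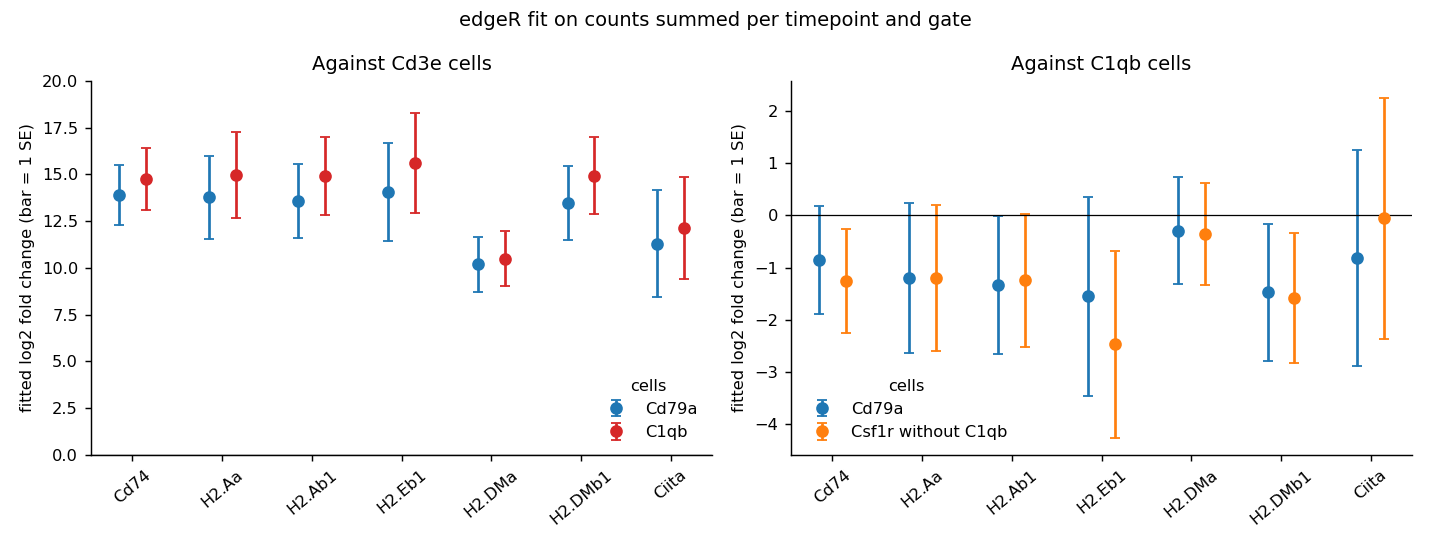
Fitted log2 fold changes of the 7 class II genes between gates, with bars of 1 SE, from the edgeR fit on 26 sums. On the left, Cd79a and C1qb cells are set against Cd3e cells and the folds lie between 10.2 and 15.6, where those of H2.Eb1, H2.DMb1 and Ciita rest on 3 reads or fewer in Cd3e cells. On the right, Cd79a cells and Csf1r cells without C1qb are set against C1qb cells, and the folds lie between -2.47 and -0.06, with 0 of 7 called in both.

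The other genes of the pathway were 20 genes in 5 roles, all of which entered the fit. Against Cd3e cells, 5 of 20 rose in Cd79a cells and 7 of 20 in C1qb cells, and none fell (DESeq2 called 9 and 11 higher and 0 lower, and 6.26% and 13.6% of all genes higher). H2.DMb2, the second H2-DM beta chain, rose in both, from 4 reads in Cd3e cells to 51591 in Cd79a cells (log2 fold 14.90, SE 2.02, adjusted p = 7.210e-05) and 10645 in C1qb cells (12.63, SE 1.90, adjusted p = 0.000112). H2.Ea.ps, the I-E alpha chain gene, listed with a pseudogene suffix, was at least 4762-fold higher in Cd79a cells and at least 1683-fold higher in C1qb cells. Ifi30, a thiol reductase of endosomes, rose in both (log2 fold 9.27 and 8.41, edgeR adjusted p = 0.00981 and 0.00671). It had reads in 2 of 6 Cd3e sums. The mean CPM was 1476 in Cd79a, 545.2 in C1qb and 13.3 in Cd3e sums, smaller ratios than the fitted folds. March1, a ligase that removes class II from the surface, was read in 0 of the Cd3e sums and was at least 4781-fold and 3452-fold higher.

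Other pathway genes passed in edgeR in 1 of the contrasts with Cd3e cells, and the difference between contrasts was tested only where given. By DESeq2, Cd40, Cd86 and Cd80, the 3 costimulation genes, were called higher in both. Cd40, a costimulatory receptor, rose in Cd79a cells (at least 4085-fold, adjusted p = 0.0118) and had an adjusted p of 0.0944 in C1qb cells. Cd86, a costimulatory ligand, rose in C1qb cells (log2 fold 12.13, SE 2.58, adjusted p = 0.00441) and had an adjusted p of 0.0863 in Cd79a cells. Ctss, the protease that trims the invariant chain, rose in C1qb cells (5.14, SE 0.714, adjusted p = 4.918e-05), and was the one pathway gene called in edgeR between Cd79a and C1qb cells, with a log2 fold of -3.29 (SE 0.727, adjusted p = 0.00974; 2.23% of genes were called lower in Cd79a cells). DESeq2 called 5 of 20 there, against 18.8% of all genes: Ctss, Ctsl and Lgmn lower in Cd79a cells and Cd40 and H2.Ob higher. Lgmn, an endosomal protease, rose in C1qb cells (9.17, SE 2.49, edgeR adjusted p = 0.0295). It had reads in 3 of 6 Cd3e sums. The mean CPM was 1486 against 35.6, again a smaller ratio than the fitted fold.

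Of the promoter complex, 0 of 7 genes (Rfx5, Rfxank, Rfxap, Nfya, Nfyb, Nfyc and Creb1) passed in edgeR in any of the 4 contrasts, 0 had an unadjusted p under 0.05 (the smallest was 0.119) and DESeq2 called 0. These genes were sparse. Rfx5 was read in 2 of 74 Cd79a cells and 3 C1qb cells, and Nfyc in 13 and 19. H2.Ob and H2.Oa, the chains of the H2-DM inhibitor H2-O, were read in 47.3% and 28.4% of Cd79a cells against 4% and 2.4% of C1qb cells. Their log2 folds of Cd79a over C1qb of 5.48 (SE 3.07) and 3.96 (SE 2.55) did not pass in edgeR (adjusted p = 0.410 and 0.521), while DESeq2 called H2.Ob (adjusted p = 0.0436).

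The Csf1r cells without C1qb were split by class II reads. Of the 72 cells 33 held at least 3 members (45.8%), 14 held none and 12 held all 7, against 89.6%, 0 and 9 of the C1qb cells. In CPM, the H2.Ab1 sums were 3346 fresh, 4695 at 6 h, 5920 on day 1, 34.2 on day 2, 115.1 on day 3 and 11903 on day 4, from 33, 14, 11, 5, 6 and 3 cells. On day 1 a single cell gave 77.5% of the reads. The spread over timepoints was wide, while the C1qb sums of H2.Ab1 kept between 6401 and 12228. Against C1qb cells 0 of 7 members passed (0.0658% of genes were called), with log2 folds from -0.06 (Ciita, SE 2.30) to -2.47 (H2.Eb1, SE 1.79) and adjusted p from 0.719 to 1. No member had an unadjusted p under 0.05, against 1265 genes, and DESeq2 called 0 members and 1460 genes (12%). The 30 Csf1r cells with H2.Ab1 read a median of 2824 genes and the 42 without it 1998. At least 2 of 8 dendritic markers were read in 9 of the 30 and in 4 of the 42, and at least 2 of the 5 monocyte markers other than Csf1r in 24 and 40. The part of these markers in the split was not tested.

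In C1qb cells H2.Eb1 was high in pool A and low in pool B. Its reads were 22.8% of the Cd74 reads in the fresh cells of pool A, 21.5% at 6 h and 20.1% on day 2, all of pool A. In pool B they were 1.15% fresh, 0.690% on day 1, 0.740% on day 3 and 0.826% on day 4. The sums of the pools did not overlap: the lowest pool A sum, 2895 CPM in 8 fresh cells, was 25.4 times the highest pool B sum, in 10 cells of day 4. Single cells did overlap, with pool A cells at 0 and a pool B cell of day 4 at 1474 rpm, but the shares of cells with H2.Eb1 stayed apart. It was read in 7 of 8, 4 of 5 and 11 of 15 C1qb cells of the pool A timepoints, and in 3 of 8, 3 of 22, 9 of 54 and 1 of 10 of those of pool B.

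The fresh cells allow this to be seen at a single timepoint. With 8 C1qb cells in each pool, H2.Eb1 stood at 2895 CPM in A and 103.8 in B, 4.80 apart on the log2 scale. H2.Aa (5772 and 5858 CPM) and H2.Ab1 (6392 and 6413) were level. Cd74 differed by 0.50, H2.DMa by 0.44 and H2.DMb1 by 0.93. Ciita stood at 306.3 CPM in A and 5.20 in B, a wider ratio than that of H2.Eb1. Its 27 reads in B were too few for the log2 difference to be taken. Of the Ciita reads, 1 cell gave 54% in A and 81.5% in B. Between these 2 sets of 8 cells 49.01% of 4128 genes differed by 2-fold or more, so passing 2-fold is common there, and the H2.Eb1 gap is given for its size. Over the 3 sums of pool A and 4 of pool B, 3 of 7 members had every A sum above every B sum, H2.Eb1, H2.DMb1 (by 1.91 times) and H2.DMa (by 1.15 times), as did 5.15% of all genes (2.51% had every A sum below every B sum, and 0 members did). A gap as wide as that of H2.Eb1 was seen in 0.395%, or 48 genes, some of which had no reads in pool B. H2.Ea.ps, the partner chain, overlapped between pools, since its lowest sums were 42.9 CPM in A and 19.8 in B and it stood at 66.99 in fresh cells of A and 115.8 on day 1 in B. H2.DMb2 was 2.26 times apart.

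**Figure D3:**
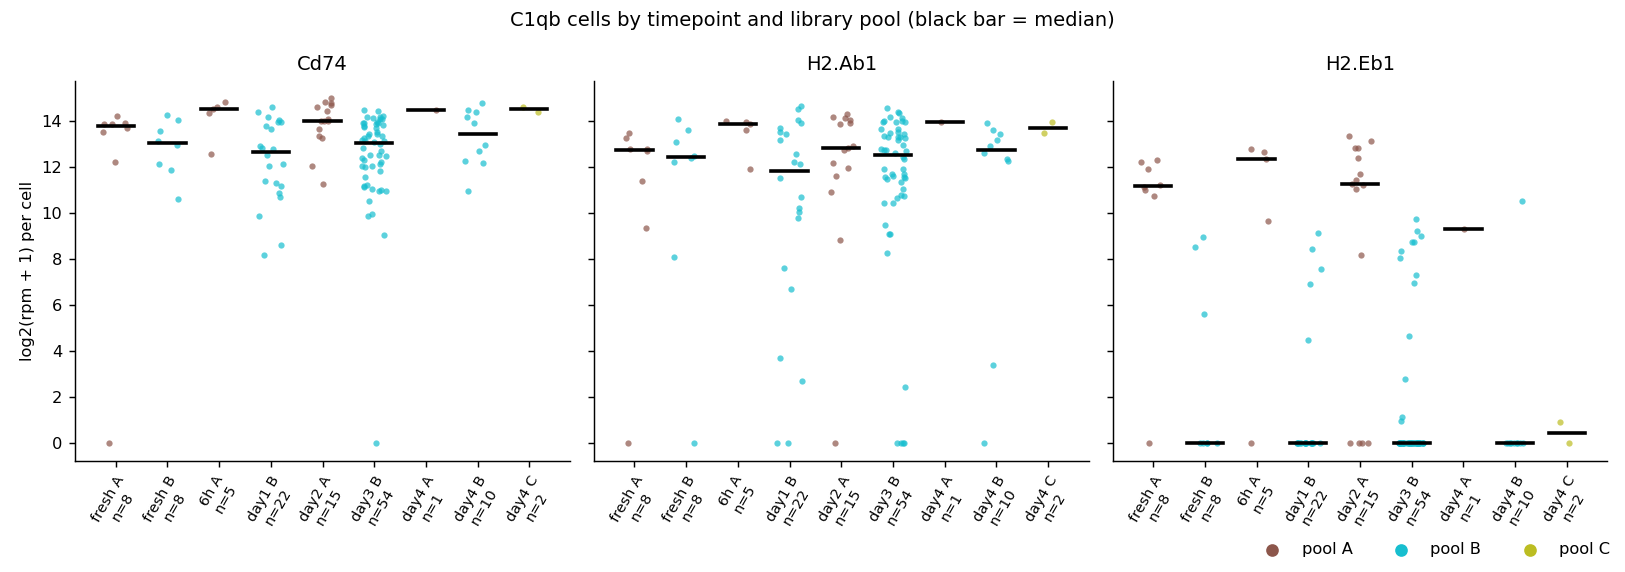
Cd74, H2.Ab1 and H2.Eb1 in C1qb cells by timepoint and library pool. The vertical axis is log2(rpm + 1), each point is 1 cell, colours are pools and the black bar is the median. Cd74 and H2.Ab1 have high medians in each column, whereas the H2.Eb1 medians are high in the pool A columns and 0 in the pool B columns.

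H2.Eb1 was compared between pools in other cells too. In Cd79a cells its reads were 12.1% of the Cd74 reads at 6 h and 6.92% on day 2 in pool A, and 2.12% fresh, 4.21% on day 1 and 0.0353% on day 3 in pool B, where 1 cell gave 75.2% of the day 1 reads, as 1 cell gave 65.7% of those at 6 h. The shares of Cd79a cells with H2.Eb1 did not separate the pools, with 4 of 8 and 12 of 29 in A and 7 of 16, 4 of 14 and 0 of 5 in B. In fresh Csf1r cells it was 939.6 CPM in 29 cells of pool A and 123.9 in 4 cells of pool B. Among ungated fresh cells it was read in 6 of 8 of pool A and 0 of 8 of pool B (exact 95% upper limit 36.9%), but H2.Ab1 was likewise read in 5 of 8 and 1 of 8. On day 4, C1qb cells had 629.3 rpm in the 1 cell of pool A, reads in 1 of 10 cells of pool B, at 1474 rpm, and a single read in the 2 cells of pool C. Pool A was also deeper than pool B, and its fresh C1qb cells read a median of 3595.5 genes against 2221. The labels do not say which animals a pool holds, so pool, animal and depth cannot be told apart here. The split into pools was looked at after these data had been seen. Relative to Cd74, the I-A chains moved far less over timepoints, H2.Aa from 44.8% to 84.6% and H2.Ab1 from 51.7% to 84.2% in C1qb cells, and from 33.6% to 73.5% and 31.02% to 77.3% in Cd79a cells. For H2.Eb1 the range over timepoints was 0.690% to 21.5% in C1qb cells and 0.0353% to 12.1% in Cd79a cells. The H2.Aa ratio in C1qb cells did not overlap between pools either, and was higher in B. It was 45.4%, 45.5% and 44.8% in A and 65.1%, 72.5%, 84.6% and 81.1% in B. The H2.Ab1 ratio overlapped, from 50.2% to 58.3% in A and from 53.2% to 84.2% in B.

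The share of all cells with Cd74 was highest on day 3, when C1qb cells were also the largest share. It was 41.7% of fresh cells (33.8 to 49.8), 34.2% at 6 h, 65.3% on day 1, 64.1% on day 2, 80.5% on day 3 and 65.7% on day 4. C1qb cells were 10.3% of fresh cells and 65.9% of those of day 3, and Cd3e cells 33.3% and 8.54%. Inside the C1qb gate Cd74 was read in 15 of 16 fresh cells and in all cells of 6 h, day 1, day 2 and day 4, and in 53 of 54 on day 3.

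**Figure D4:**
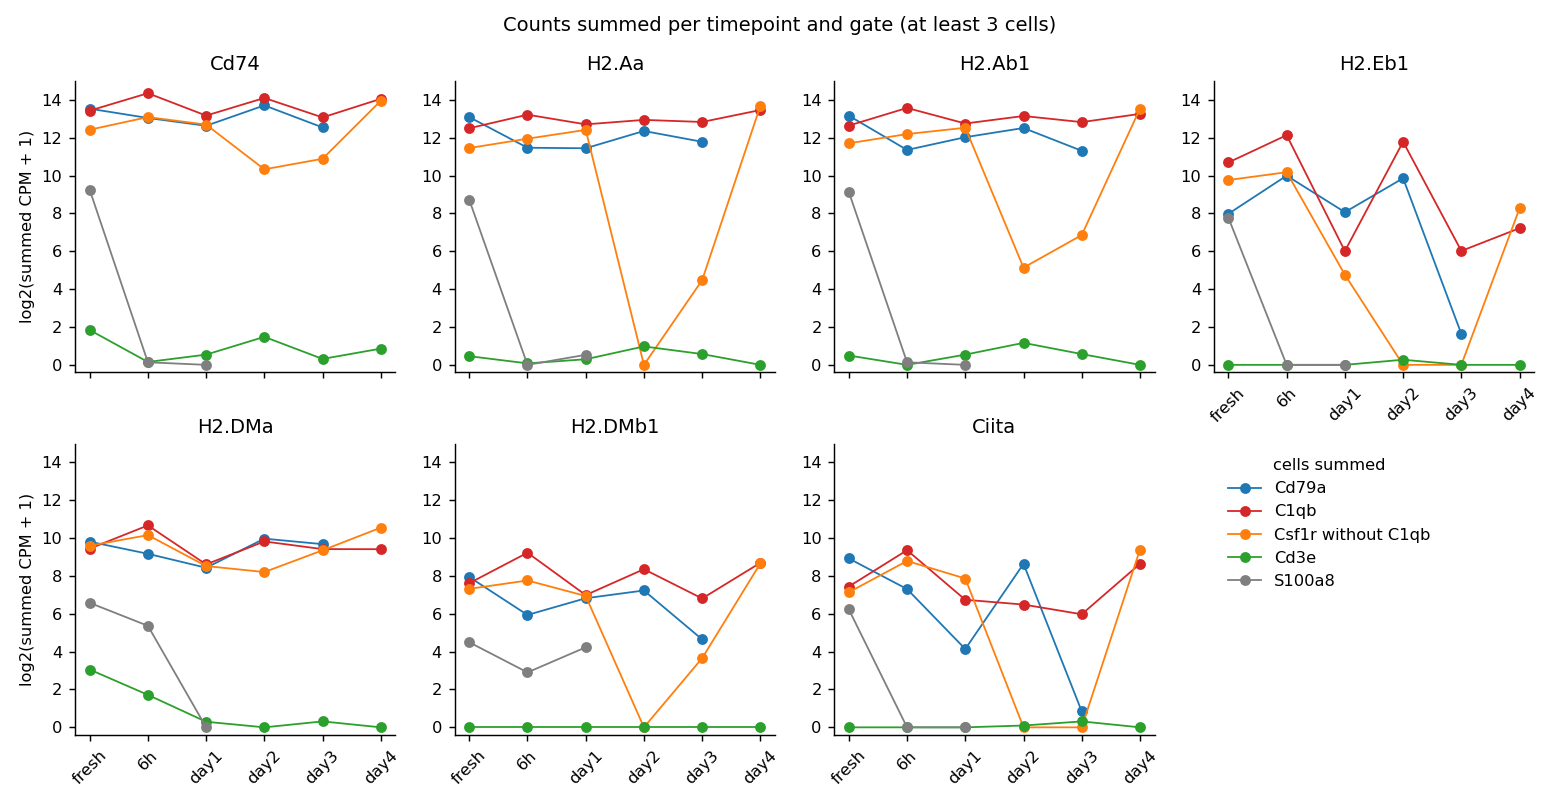
Counts of each class II gene summed per timepoint and gate, as log2(CPM + 1), for sums of at least 3 cells. Each point is 1 sum and lines join the sums of a gate for legibility. The Cd79a and C1qb lines stay high for Cd74, H2.Aa, H2.Ab1 and H2.DMa, the Csf1r line drops on day 2 and day 3 for Cd74, H2.Aa and H2.Ab1, and the H2.Eb1 lines of C1qb and Cd79a cells are highest at 6 h and day 2.

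Preserved cells were set against fresh cells of the same gate and pool, where both had at least 5 cells and a gene at least 50 reads in each sum. With 1 sample a timepoint these ratios have no test. In the C1qb cells of day 1, 0 of 6 members compared were 2-fold apart from fresh (16% of 4486 genes were higher by that much and 32.1% lower), and on day 3 again 0 of 6 (14.4% and 33.5% of 4841). Cd74 stood at 9003 CPM in fresh cells of pool B, 9237 on day 1 and 8639 on day 3, and H2.Ab1 at 6413, 6912 and 7275. Ciita was not compared there, since fresh cells of pool B held 27 reads of it, and it stood at 5.20 CPM fresh, 61.95 on day 3 and 78.8 on day 4, with 1203 reads in 22 cells on day 1. Of these fresh reads 81.5% came from 1 cell. At 6 h, in pool A, 3 of 7 were 2-fold higher (34.3% of 3597 genes were higher and 16.2% lower), H2.DMb1 by 1.27 on the log2 scale, Ciita by 1.10 and H2.DMa by 1.05, and the median of the members was 0.94 against 0.41 over all genes, from 5 cells against 8 (2.06 as the difference of mean log2(rpm + 1) over cells). For Ciita 1 cell gave 75.6% of the 6 h reads, and its difference of mean log2(rpm + 1) over cells was -0.77. On day 2 the members had a median of 0.40 against 0.01, and 1 of 7, Ciita, was 2-fold lower (23.8% of 5171 genes were lower and 22.8% higher), at -1.78 with all its day 2 reads in 1 cell. On day 4, 2 of 6 were 2-fold lower in pool B (20.4% of 2510 genes were lower and 31.5% higher), H2.DMa at -1.97, with 97.9% of its day 4 reads in 1 of 10 cells, and H2.DMb1 at -1.08. Taken as the difference of mean log2(rpm + 1) over cells instead, the member medians of day 2, day 3 and day 4 turned negative, at -0.65, -0.64 and -0.90, and that of day 1 was -0.96.

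In Cd79a cells of pool B most members had lower levels after preservation than fresh, while H2.Eb1 on day 1 stood at 0.087 on the log2 scale as summed CPM and was negative as the difference of mean log2(rpm + 1) over cells. Cd74 ran from 7002 to 16081 rpm in 16 fresh cells (median 12070) and from 231.2 to 13788 in 14 cells of day 1 (median 7270). H2.Ab1 had medians of 8604 and 4018 rpm, with 10 of the 14 cells of day 1 at 10 reads or more against 16 of 16 fresh cells. Although medians were lower, the ranges overlap. As summed CPM, 5 of 7 members were 2-fold lower on day 1 and 0 higher (24.1% of 4171 genes were lower and 24.2% higher), H2.Aa by -1.65 on the log2 scale, H2.DMa by -1.38, H2.Ab1 by -1.14, H2.DMb1 by -1.13 and Ciita by -4.87, and the member median was -1.14 against -0.04 for all genes. On day 3, with 5 cells, 3 of 5 were 2-fold lower and 0 higher (17.6% of 2758 genes were lower and 36.7% higher), H2.DMb1 at -3.35, H2.Ab1 at -1.86 and H2.Aa at -1.31. As differences of mean log2(rpm + 1) over cells, the member medians were -3.44 on day 1 and -3.10 on day 3. Ciita was read in 12 of 16 fresh cells, 1 of 14 on day 1 and 0 of 5 on day 3. Pool A holds no fresh Cd79a cells, so its day 2 level of Cd74, 13422 CPM in 29 cells and the highest of the Cd79a sums, has no fresh partner.

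**Figure D5:**
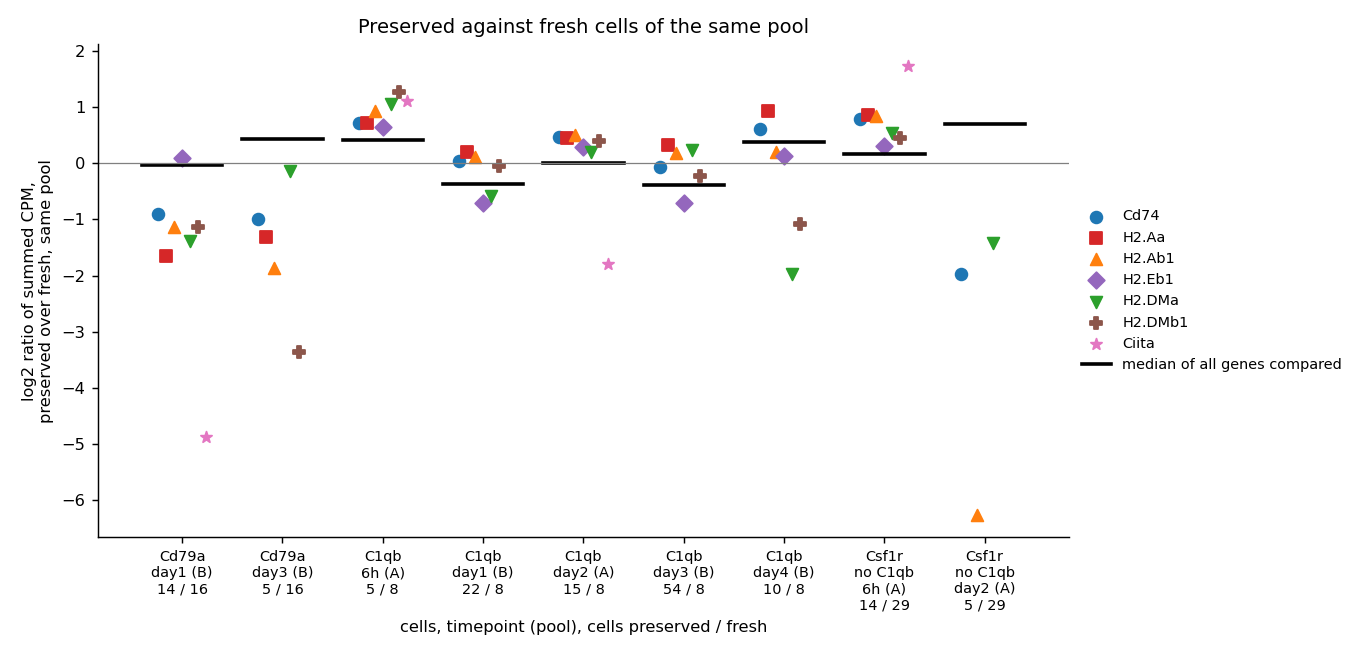
Log2 ratio of summed CPM, preserved over fresh cells of the same pool, for members with at least 50 reads in both sums, 1 column a gate and timepoint with the pool and the numbers of cells under it. Symbols are genes and the black bar is the median of all genes compared. Members lie mostly below the bar in the Cd79a columns and mostly above it in the C1qb columns of 6 h to day 3.

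In Csf1r cells without C1qb, 1 of 7 members was 2-fold higher at 6 h (23.9% of 6214 genes were higher and 17.8% lower), Ciita at 1.72. On day 2, 3 of 3 members compared were 2-fold lower (15.4% of 2889 genes were lower and 43.2% higher), from 5 cells against 29. Cd74 was at -1.98, H2.DMa at -1.42 and H2.Ab1 at -6.26, with all H2.Ab1 reads of day 2 in 1 cell. H2.Aa, H2.Eb1, H2.DMb1 and Ciita had 0 reads on day 2, so the read limit left them out. Over all 33 fresh Csf1r cells they stood at 2815, 870.9, 158.7 and 140 CPM. In the difference of means over cells Cd74 was instead 0.83 higher on day 2. No member could be compared in Cd3e cells, and in S100a8 cells 2 of 2 were 2-fold lower at 6 h (25.1% of 2786 genes were lower and 26% higher), where 1 fresh cell holds most reads.

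Within single cells the I-A chains were read together and with Cd74. Of the cells with H2.Aa, 94.85% also held H2.Ab1, and 99.57% of those with H2.Ab1 held Cd74. H2.Eb1 came with H2.Ab1 in 99.07% of its cells, but only 45.69% of the cells with H2.Ab1 had H2.Eb1. The H2-DM chains came together less fully, with H2.DMa in 86.1% of the cells with H2.DMb1 and H2.DMb1 in 72.7% of those with H2.DMa. Ciita came with Cd74 in 83 of 85 cells, and 29.75% of the cells with Cd74 had Ciita (interval 24.4 to 35.5). In C1qb cells Cd74 was read in 24 of the 25 cells with Ciita (96%) and in 98.4% of all cells, so the first share was no higher than that of the gate. Over the cells of a gate, which share libraries and depth, Pearson correlations of log2(rpm + 1) between H2.Aa and H2.Ab1 were 0.949 in 74 Cd79a cells, 0.711 in C1qb cells and 0.934 in 72 Csf1r cells. Cd74 and Ciita had 0.279, 0.161 and 0.546 in these gates.

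C1qb cells with few genes held Cd74 more often than H2.DMb1. Among 17 C1qb cells with fewer than 1000 genes (4 of day 1, 9 of day 3 and 4 of day 4, all in pool B), Cd74 was read in 17 (median 4649 rpm), H2.Ab1 in 13 and H2.DMb1 in 1. Among the other C1qb cells Cd74 was read in 98.15% (median 10556 rpm), H2.Ab1 in 90.74% and H2.DMb1 in 61.1%.

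The genes most like the members, by Pearson correlation with their mean log2(CPM + 1) over the 26 sums, were Cd72 (0.911), Fgd2 (0.910), H2.DMb2 (0.909), H2.Ea.ps (0.901) and Plekho1 (0.900). Cd72, a B cell co-receptor, was read in 51.4% of Cd79a cells, 72.8% of C1qb cells, 16.7% of Csf1r cells and 0% of Cd3e cells. Fgd2 was read in 28.4%, 48%, 45.8% and 0% of the same cells, and Plekho1 in 24.3%, 37.6%, 31.9% and 1.92%. The members themselves ranged from 0.913 (H2.Eb1) to 0.990 (H2.Ab1) with their own mean, of which each is a part.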

How the data were processed

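Single Cd45+ kidney cells were sequenced from plates (an adapted SmartSeq2 protocol). Per the labels and the study's methods, the deposited counts are whole reads per gene, not normalized: the authors cut reads to 75 bp, took out duplicates (picard), and used STAR on GRCm38 and then HTSeq (intersection-strict, without strand). Tool versions: not given in the sources used here. Cells under 1000 reads had been left out by the authors. The 96 spike-in rows (0.000186% of counts) and 1 vector row (0.14%) were left out of totals, and no column was without a sample.

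Groups came from the labels. Cells were gated at 10 reads, without a doublet caller; the 20 cells with genes of several gates entered no fit. Counts were summed per timepoint and gate (at least 3 cells) and tested in edgeR 4.0.16 (R 4.3.3) by quasi-likelihood with TMM and filterByExpr, a term for gate and the timepoint as block, since gates of 1 timepoint come from the same kidneys. P-values were adjusted by Benjamini-Hochberg over all 12154 genes, with a threshold of 0.05, and the fit was tested on simulated data with the spread of these sums: fold changes were recovered without bias and without false calls, but power was low: rises as large as those of the members against Cd3e cells were mostly called, falls of that size were mostly missed, and so were rises and falls orders of magnitude smaller that are still many-fold changes. The size that had to be called was set after a first run had missed smaller ones. The contrasts with C1qb cells have little power for this reason. DESeq2 1.42.0, other gates, filters and normalizations were alternatives. Shares have 95% Clopper-Pearson intervals. Summed values weigh deep cells more. H2 alleles of an outbred stock that differ from the reference can lose reads, which was not tested. The text names all members, the gate genes, those pathway genes that passed or are given for their sparsity, and the 5 most like genes. The members and gene lists were chosen with earlier results of these data known.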

Additional observations from a re-analysis of the deposited data

Results flagged for a closer look

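Class II reads also lay outside the gates compared. H2.Ab1 was read in 26.7% of the ungated cells (20 of 75), against 0 Cd3e cells, and these cells entered no comparison. In the 20 cells the median levels were 12985 rpm for Cd74 (46.7 to 37667), 10644 rpm for H2.Aa, 11715 rpm for H2.Ab1 (306 to 23843), 1195 rpm for H2.DMa, 434 rpm for H2.DMb1 and 489 rpm for Ciita. At least 2 of 8 dendritic markers were read in 15 of the 20 and in 1 of the 55 ungated cells without H2.Ab1: Flt3 in 13 and 0, Xcr1 in 9 and 1, Batf3 in 9 and 0, Itgax in 8 and 1, Cd209a in 7 and 0, Clec9a in 7 and 0, Zbtb46 in 3 and 1, and Ccr7 in 1 and 1. At least 2 of the 5 monocyte markers other than Csf1r were read in 9 of the 20 and 11 of the 55, with Ccr2 in 13 and 17, and the macrophage marker Cd68 was read in 13 and 6. Cd79a, C1qb and Csf1r are below 10 reads in these cells by the gate. Ighm was read in 15 of the 20, Cd79b in 4 and Ms4a1 in 1. By timepoint and pool, the 20 cells were 5 of 8 fresh cells of pool A, 1 of 8 fresh cells of pool B, 3 of 12 at 6 h, 5 of 15 on day 1, 1 of 11 on day 2, 1 of 10 on day 3, and on day 4 1 of 1 in pool A, 0 of 6 in pool B and 3 of 4 in pool C.

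H2.Ab1 was also read in 30% of the mixed cells (6 of 20), which hold genes of more than one gate. Of these 20 cells 15 held Csf1r with S100a8, 2 Cd3e with Csf1r, 2 Cd79a with C1qb and Csf1r, and 1 held 4 gate genes. The 6 cells with H2.Ab1 read a median of 3994 genes against 1864 in the other 14, and whether any of them was more than 1 cell was not tested.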

How the results depend on the processing

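All 7 members were called in C1qb cells against Cd3e cells under each of 17 alternatives, and none was called under any in the 2 contrasts with C1qb cells. In Cd79a cells against Cd3e cells 6 or 7 were called, with Ciita the one lost. Of the genes tested, 1.14% were called in Cd79a against Cd3e cells, 5.23% in C1qb against Cd3e, 2.90% in Cd79a against C1qb and 0.0658% in Csf1r without C1qb against C1qb. Leaving out 1 timepoint in turn gave 0.614% to 0.992%, 2.61% to 3.84%, 1.35% to 2.86% and 0.0256% to 0.0583% in these contrasts, lowest without the fresh sums in the first 3 and without day 2 in the last. With no replicate block, that is without the pairing of gates by timepoint, the shares were 1.75%, 7.93%, 4.402% and 0.165%, and by DESeq2 14.3%, 19.5%, 18.8% and 12.01%. The last contrast had 0.0252% with a gate of 1 read, 0.132% with a gate of 20 rpm and 0.133% with sums per timepoint and pool. Other normalizations moved the median fold of all genes, from 0.63 to 0.32 (DESeq2 size factors) or 0.29 (totals) in C1qb against Cd3e, and from -0.77 to -0.45 or -0.55 in Cd79a against C1qb. With a single read as the limit, Cd74 was found in 55.8% of fresh, 76% of day 1 and 78.2% of day 2 cells. As differences of mean log2(rpm + 1), member medians of preserved against fresh cells were -3.44 (Cd79a day 1), -3.10 (Cd79a day 3), 2.06 (C1qb 6 h), -0.96, -0.65, -0.64 and -0.90 (C1qb day 1 to day 4), 0.0506 (Csf1r 6 h) and -0.78 (Csf1r day 2); of the members named there as 2-fold apart, 2 changed sign, Ciita in C1qb cells at 6 h (-0.77) and Cd74 in Csf1r cells on day 2 (0.83), and members less than 2-fold apart changed sign too. Against all fresh cells the C1qb medians were -0.63 (day 1) and -1.13 (day 4), and with a gate of 1 read day 4 was 0.86. The range of the H2.Eb1 to Cd74 ratio over timepoints in C1qb cells was 10.13 by the median over cells and 4.96 by sums, on the log2 scale. The cause was not tested for any of these. Where Cd3e cells held 3 reads or fewer of a member, depth limits its ratio to a bound or a wide interval.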
